A study of Mus musculus with 26 samples.

Results

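The tubulin genes described here are 10 of the 55401 genes in a table of RNA-seq counts from mouse eggs and 1-cell embryos. They were chosen by name, with earlier results of these data known. They are the beta-tubulins Tubb6, Tubb5, Tubb4b, Tubb2a, Tubb2b and Tubb3, and the alpha-tubulins Tuba1a, Tuba1b, Tuba1c and Tuba4a. All 10 symbols were found in the table. An alpha-tubulin and a beta-tubulin pair into the subunit from which microtubules are built. In the egg these form the meiotic spindle, and after fertilisation they move the pronuclei together and build the first mitotic spindle. Mammals carry several genes for each kind, whose proteins differ mostly at the C-terminal tail, and cells lower tubulin mRNA when free subunits accumulate. That feedback, called autoregulation, reads the first amino acids of tubulin as it leaves the ribosome.

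The first series held 7 libraries of 1-cell embryos kept in 10058-F4 and 7 of their controls. 10058-F4, a thiazolidinone, is known to keep the transcription factor c-Myc from pairing with its partner Max. It was added 2 h after sperm met eggs and left for 10 h, at a dose not stated in the labels. The labels name this compound for all 7 treated libraries, although the protocol mentions a second c-Myc inhibitor as well. The second series held 4 libraries of embryos kept in alpha-amanitin, an inhibitor of RNA polymerase II (100 µg/ml, from 1 h, for 10 h), 4 of control embryos and 4 of eggs at metaphase of the second meiotic division (MII oocytes). Eggs came from superovulated B6D2F1 females aged 8 weeks, and embryos were made by fertilisation in vitro with B6D2F1 sperm, so every embryo is an F2 of this cross. The labels name no engineered allele. They give embryos an age of 10 h, less than the protocol's incubation times add up to, and oocytes 0 h. The labels name no donor or batch, so the p-values measure the spread between libraries alone, which may be technical.

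Library totals were 20566278 to 27266040 counts in the first series and 5371602 to 31540627 in the second. In the second series alpha-amanitin replicate 3 was the shallowest, with 9497 genes detected, and replicate 1 the deepest, with 21984. The other 2 alpha-amanitin libraries detected 12360 and 15213 genes. All 12 oocyte markers, such as Zp3 and Gdf9, were present in every group. Markers of cumulus cells, which surround the egg, summed to at most 85.2 CPM (the counts-per-million unit) in any library. Tnfaip6 was at 0 in 4 of the 5 groups, while Cyp19a1 was above 0 in every library, at 4.95 to 41.8 CPM, and Vcan reached 43.2 CPM in an oocyte library. Markers of sperm summed to at most 22.3 CPM, with Tnp1, Tnp2 and Smcp at 0 in all 5 groups. Prm2 had counts in all 5 groups, with medians from 1.32 CPM in alpha-amanitin embryos to 12.0 CPM in oocytes.

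The start of the coding sequence carries the feature that autoregulation reads. All 10 genes began with a start codon, an arginine codon and a glutamate codon, which is true of 42 of 21542 protein-coding genes (0.195%), these tubulins included. The first 30 coding bases of 7 of them are shown 5′ to 3′, from the GENCODE vM21 transcripts of GRCm38, with the first 4 codons in capitals.
Tubb4b: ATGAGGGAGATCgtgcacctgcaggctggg
Tubb3: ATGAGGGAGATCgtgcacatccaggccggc
Tubb2a: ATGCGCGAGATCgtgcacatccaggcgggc
Tubb2b: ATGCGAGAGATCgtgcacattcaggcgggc
Tubb5: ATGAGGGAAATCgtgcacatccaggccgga
Tuba4a: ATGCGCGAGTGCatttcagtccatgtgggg
Tuba1c: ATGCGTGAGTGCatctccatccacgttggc
The beta-tubulins shown share ATC as the last codon in capitals and the alpha-tubulins TGC, while the codon used for arginine varies from gene to gene.

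Beyond the start the family is so alike that reads may not show which gene they came from. Coding sequences were 80.2% to 96.5% identical between beta-tubulins and 84.8% to 98.3% between alpha-tubulins, against 52.2% to 55.1% between the 2 kinds. The closest pair was Tuba1a with Tuba1b (98.3%), and among beta-tubulins Tubb2a with Tubb2b (96.5%). The last 60 coding bases of Tubb2a and Tubb2b, which encode the C-terminal tail, are set together with capitals where they differ. Read as codons, these differences leave the encoded amino acids the same.
Tubb2a: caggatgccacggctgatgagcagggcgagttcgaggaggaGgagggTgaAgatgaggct
Tubb2b: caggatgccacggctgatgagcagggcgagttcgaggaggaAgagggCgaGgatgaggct
Of all windows of 100 bases in its transcript, none of those of Tubb6, Tubb5 or Tubb3 occurred in a transcript of another gene. The share of such unique windows was 72.3% in Tubb2b, 69.4% in Tubb4b, 63.1% in Tubb2a, 53.3% in Tuba4a, 46.6% in Tuba1c, 34.2% in Tuba1a and 27.0% in Tuba1b. In Tuba4a the shared windows lay outside the coding part and were shared with Stk16, while exons on the other strand lie under 48.6% of its transcript. Exons of another annotated gene on the same strand, Gm49450, lie over 26.2% of Tuba1a and 24.4% of Tuba1b, and Gm49450 itself had no count in any library. No label or header says how the authors' counting treated reads that fit several genes, so the levels of the Tuba1 genes, Tubb2a, Tubb2b and Tubb4b are uncertain to that extent.

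Tubb4b was by far the most abundant tubulin mRNA in eggs and embryos, and the alpha-tubulins counted here were scarce. Levels are in CPM with library totals scaled by the TMM method, which evens out differences in library make-up, and between genes they are compared as CPM per kilobase of merged exons. On this scale Tubb4b averaged 485 ± 46.1 in 10058-F4 embryos and 372 in their controls, 462 in alpha-amanitin embryos and 462 in their controls, and 437 in oocytes. No library of Tubb4b fell as low as any library of the next gene in the order in any group. Tubb3, a beta-tubulin best known from neurons, Tubb2a, and Tubb6, a divergent and widely expressed beta-tubulin, came next in all 5 groups, between 42.0 and 121 CPM per kilobase.

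The order of these 3 differed between groups, and neighbours mostly overlapped. In 10058-F4 embryos the order was Tubb2a (118), Tubb6 (112) and Tubb3 (101 CPM per kilobase), and in their controls Tubb3 (98.9), Tubb2a (76.0) and Tubb6 (68.9). In alpha-amanitin embryos Tubb3 (94.3) overlapped both Tubb6 (93.0) and Tubb2a (71.4), and every library of Tubb2a lay below every library of Tubb6. In control embryos of that series Tubb3 (89.7), Tubb2a (61.6) and Tubb6 (42.0) each overlapped the next. In oocytes Tubb6 stood second to Tubb4b at 121, ahead of Tubb2a (86.7) and Tubb3 (75.5). With the length of the principal transcript in place of merged exons, Tubb6 came second in 10058-F4 and alpha-amanitin embryos too.

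Tubb2b, Tuba4a and Tubb5 followed, between 13.1 and 41.9 CPM per kilobase in all 5 groups. Tuba1c averaged between 4.72 and 8.14. Tuba1b and Tuba1a, which encode major alpha-tubulins of most dividing and neuronal cells, were near 0. The 6 beta-tubulins made up 94.0% to 96.1% of the CPM per kilobase of the 10 genes, as means of the 5 groups. Other alpha-tubulins with counts, such as Tuba3a and Tubal3, are outside these shares. A microtubule needs the 2 kinds in equal number, so the imbalance within the 10 genes is set beside the shared sequence given above. Whether reads shared between alpha-tubulin genes and their copies lowered these counts was not tested.

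**Figure D1:**
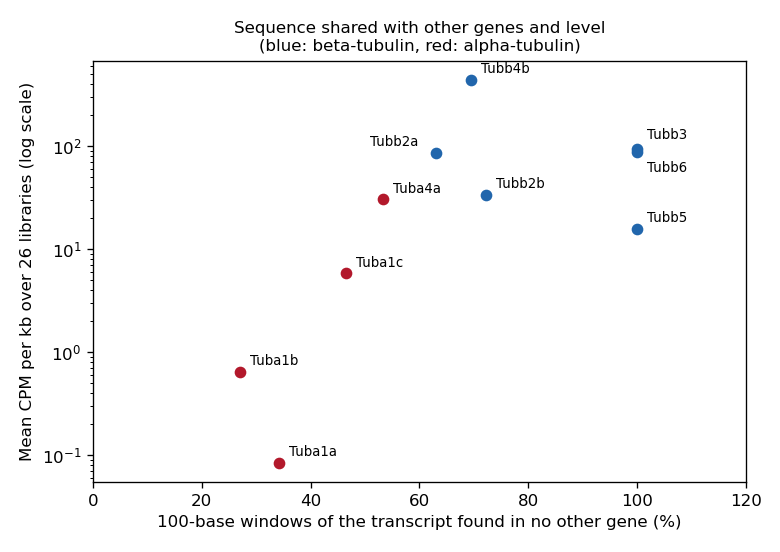
Mean level of each tubulin gene over all 26 libraries, in CPM per kilobase of merged exons on a log axis, against the percentage of 100-base windows of its transcript found in no other gene. The Tuba1 genes lie lowest on both axes, between 27.0% and 46.6% unique, while Tubb4b is the highest at 69.4% unique.

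Under 10058-F4, 3 of the 6 beta-tubulin mRNAs were called higher and none of the tubulins was called lower. The comparison asks which transcripts of the embryo depend on c-Myc. Tubb6, Tubb4b and Tubb2a rose, so 3 of the 8 tubulins that passed the filter on low counts were called higher. Across all genes tested, 6.82% were called higher and 4.08% lower. The edgeR quasi-likelihood test with Benjamini-Hochberg adjustment over 13003 genes made the calls, at an adjusted p under 0.05. The log2 fold changes, on which a value of 1 is a doubling, were above 0 for all 8 tubulins, with a median of 0.27, against a median of -0.00049 over all genes. No tubulin was lower at an unadjusted p under 0.05, by DESeq2 or by limma voom, and Tuba1a and Tuba1b did not pass the filter.

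Tubb6 lies at chromosome 18, 67390717 to 67402749. Its CPM ran from 187 over a median of 279 to 348 in 10058-F4 embryos, against 131, 163 and 225 in controls. The treated libraries lay above the controls except that replicate 2 of the treated, at 187, was below control replicate 8, at 225. The means were 273 ± 49.7 and 168 ± 28.3 CPM (SD, n = 7 each). The log2 fold change was 0.71 (SE 0.12, edgeR adjusted p = 0.000184).

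Tubb4b (chromosome 2, 25222160 to 25224702), the main beta-tubulin of these cells, had 913, 995 and 1188 CPM as lowest, median and highest value in 10058-F4 embryos, against 695, 811 and 846 CPM in controls. Every treated library was above every control, which was true of 2.71% of all genes tested in this direction. The means were 1013 ± 96.3 and 776 ± 64.2 CPM (SD, n = 7 each). Its log2 fold change was smaller than that of Tubb6 at 0.40 (SE 0.07, edgeR adjusted p = 0.000551). Untreated control embryos of the second series held 822 to 1146 CPM of Tubb4b, with a mean of 965. The difference between the control groups of the 2 series was not tested.

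Tubb2a (chromosome 13, 34074274 to 34078007) had 137, 197 and 230.4 CPM as lowest, median and highest value in 10058-F4 embryos, against 66.4, 113 and 164 CPM in controls. The groups overlapped between 137 and 164. The means were 190.0 ± 34.5 and 122 ± 36.5 CPM (SD, n = 7 each). The log2 fold change of Tubb2a was 0.65 (SE 0.16, edgeR adjusted p = 0.00908). Its neighbour on the chromosome and closest relative, Tubb2b (chromosome 13, 34126748 to 34130466), had a log2 fold change of 0.35 that missed the threshold (edgeR adjusted p = 0.0722). The means of Tubb2b were 96.1 ± 15.2 CPM in 10058-F4 embryos and 75.9 ± 12.7 CPM in controls.

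The other 4 tested tubulins lay close together in treated and control libraries. Tubb3 averaged 189 ± 19.6 CPM in 10058-F4 embryos and 185 ± 14.5 CPM in controls, with a 95% interval of the log2 fold change from -0.13 to 0.22. Tubb5 averaged 49.3 ± 12.9 CPM against 47.4 ± 10.0 in controls, with an interval from -0.29 to 0.43. For Tuba4a the interval was -0.07 to 0.45 and for Tuba1c -0.40 to 0.72. Tuba1c was low, at 12.0 ± 2.67 CPM in 10058-F4 embryos and 10.8 ± 3.89 in controls. A rise as large as that of Tubb6 lies outside the intervals of Tubb3, Tubb5 and Tuba4a, and inside that of Tuba1c.

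The 10 genes together took a larger share of the RNA, mainly through Tubb4b, Tubb6 and Tubb2a, the genes already called. The CPM of the 10 genes summed to 1932 ± 197 in 10058-F4 embryos and 1482 ± 130 in controls (SD, n = 7 each). Every treated library, from 1697, lay above the highest control, at 1623. Means in 10058-F4 embryos and controls were 1013 and 776 CPM for Tubb4b, 273 and 168 for Tubb6, and 190.0 and 122 for Tubb2a. Tubb3 (189 and 185) and Tubb5 (49.3 and 47.4) added little. The sum is therefore not separate evidence of a rise across the family. CPM is a share of all counted RNA, so a higher level of these mRNAs cannot be told apart from a lower level of other RNA in the embryo. The summed CPM of the 12 oocyte markers was also higher in 10058-F4 embryos, at 7688 to 9564, against 4706 to 6889 in controls, without overlap. Of these markers, 6 of 12 were called higher, against 6.82% of all genes, and 9 had a log2 fold change above 0. Gdf9 had medians of 1773 CPM in 10058-F4 embryos and 380 in controls, and H1foo 1721 and 508. Medians of Bmp15 (1239 and 1305), Nlrp5 (990 and 1135) and Ooep (337 and 394) were lower in 10058-F4 embryos. The part of the markers in the tubulin values was not tested.

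**Figure D2:**
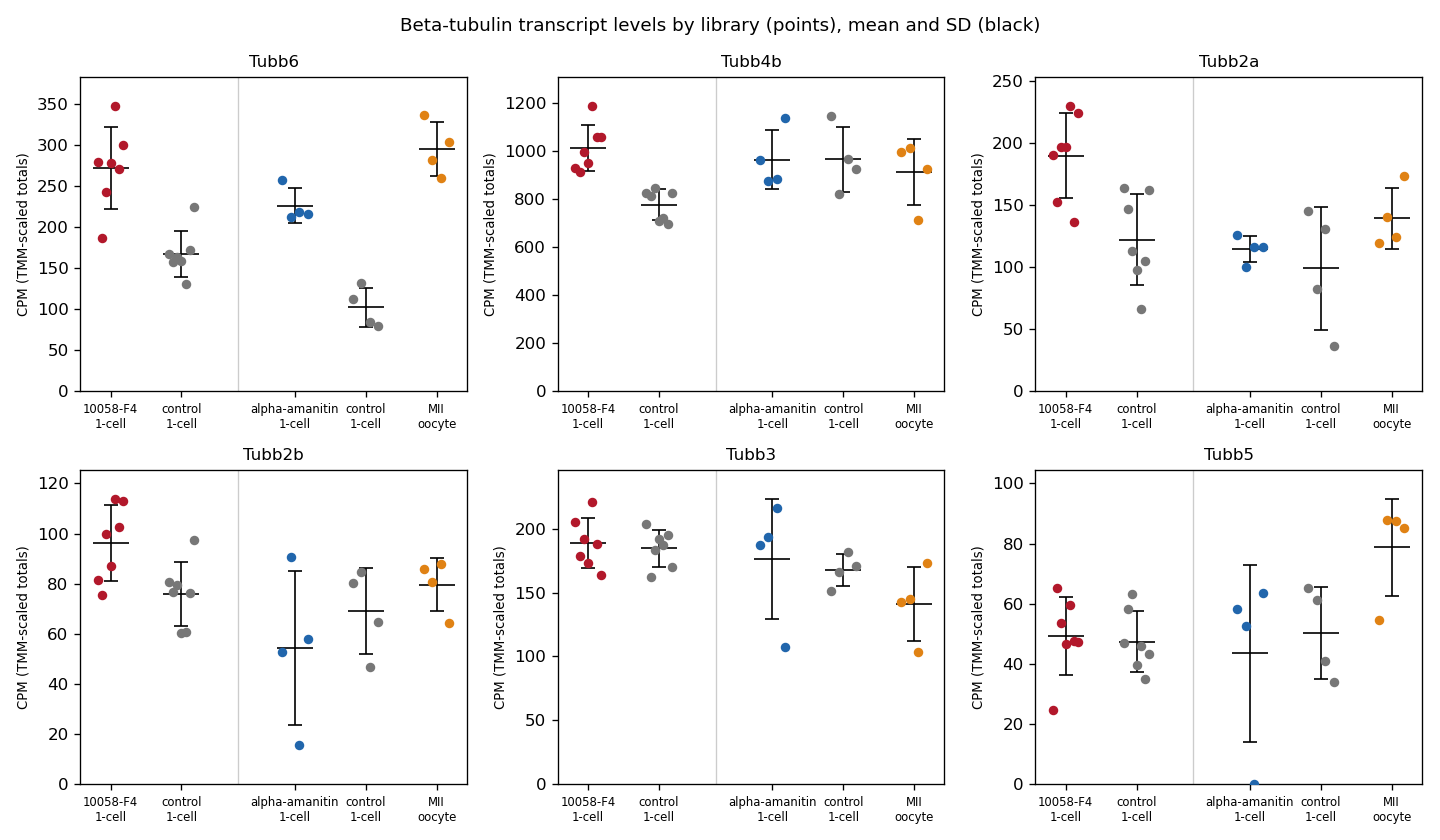
CPM of the 6 beta-tubulins in each library (points), with the mean and SD of each group in black; the grey line parts the first series from the second. Tubb6 is higher in both treated groups than in their controls, while Tubb4b and Tubb2a are higher in 10058-F4 embryos than in theirs. The mean of Tubb6 is highest in oocytes, whose libraries (260.5 to 337 CPM) lie within the range of 10058-F4 embryos (187 to 348 CPM) from the other series.

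Under alpha-amanitin, Tubb6 alone among the tubulins was called, and it was higher. Blocking RNA polymerase II asks which transcripts of the 1-cell embryo need new transcription, since mRNA stored in the egg does not. Of the 8 tubulins tested, 1 was called higher and none lower. Calls were rare in this comparison: 0.0228% of 13133 genes were called higher, which is 3 genes, and 0.00761% lower. At an unadjusted p under 0.05 no tubulin was lower either, and DESeq2 and limma voom likewise called none lower.

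Tubb6 had 258, 213, 219 and 216 CPM in the 4 alpha-amanitin embryo libraries, against 112, 132, 84.9 and 80.3 CPM in the 4 controls. The groups did not overlap, and the lowest treated library was above the highest control by more than the whole range of the controls. Such separation in the higher direction was seen in 1.27% of all genes. The means were 227 ± 21.3 and 102 ± 24.3 CPM (SD, n = 4 each), with a log2 fold change of 1.17 (SE 0.19, 95% interval 0.77 to 1.56, edgeR adjusted p = 0.0365). By its p-value Tubb6 ranked 1 of 13133 genes, in a list chosen with earlier results of these data known.

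The size of this difference was stable and its call was not. When each of the 12 libraries of the fit was left out in turn, the log2 fold change stayed between 1.06 and 1.31. The call held in 2 of these 12 fits, those without alpha-amanitin replicate 3 and without control replicate 2, with adjusted p between 0.0318 and 0.183 over all 12. Without alpha-amanitin replicates 1 and 3, the libraries that stood apart in depth, the log2 fold change was 1.08 (edgeR adjusted p = 0.187). The oocyte markers summed to 4958 to 7448 CPM in alpha-amanitin embryos and 5055 to 5968 in controls, which overlapped.

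The other tested tubulins showed no call under alpha-amanitin, with precision that differed between them. Tubb4b had 961, 875, 883 and 1139 CPM in alpha-amanitin embryos, against 1146, 822, 967 and 925 CPM in controls. These groups overlapped fully, and the 95% interval of the log2 fold change was -0.29 to 0.33, which does not hold the value of Tubb6. The interval was -0.38 to 0.56 for Tubb3, -0.42 to 0.88 for Tubb2a, -0.71 to 0.34 for Tuba4a and -1.15 to 0.51 for Tubb2b. For Tubb5 and Tuba1c it was too wide to set a useful limit, at -1.73 to 1.38 and -3.61 to 2.36.

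In both of these genes the libraries of a group spread widely. Tubb5 had 58.1, 52.7, 0 and 63.5 CPM in alpha-amanitin embryos and 65.1, 61.2, 40.9 and 34.1 CPM in controls. The library at 0 is replicate 3, where a count of 0 allows up to 0.558 CPM by counting error alone. Tuba1c had 28.1, 17.7, 0 and 1.07 CPM in alpha-amanitin embryos and 0, 59.2, 2.22 and 13.1 CPM in controls, so both groups held libraries at or near 0 and others well above it.

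In 10 h control embryos of the second series Tubb6 mRNA was lower than in the egg by CPM, while the rest of the family gave no call. This comparison follows the mRNA inherited from the egg through the first hours of development, when much of it is degraded. As under 10058-F4, CPM is a share of all counted RNA. A lower level of a gene therefore cannot be told apart from a higher level of other RNA. Of 8 tubulins tested, 1 was called lower and none higher. Over all genes, 1.78% were called lower and 1.11% higher. DESeq2 and limma voom each called the same number of tubulins, 1 lower and none higher.

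Tubb6 had 112, 132, 84.9 and 80.3 CPM in control embryos, against 337, 282, 260.5 and 304 CPM in oocytes. The highest embryo library held less than any oocyte library by a wide margin. Full separation in this direction held for 9.34% of all genes tested. The means were 102 ± 24.3 CPM in control embryos and 296 ± 32.6 CPM in oocytes (SD, n = 4 each), and the log2 fold change was -1.54 (SE 0.19, edgeR adjusted p = 6.40e-05). This call held in all 12 fits with a library left out and in all 9 other settings tried. Control embryos of the first series averaged more Tubb6, at 168 CPM (131 to 225), also below every oocyte library. The difference between the 2 control groups was not tested. The oocyte markers were lower too, at 5055 to 5968 CPM in control embryos, against 10228 to 11117 in oocytes, and 7 of 12 were called lower. Their part in the value of Tubb6 was not tested.

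Tubb4b stayed close to its level in the egg, at 965 ± 135 CPM in control embryos and 913 ± 137 CPM in oocytes, with a 95% interval from -0.24 to 0.38. The interval was -0.23 to 0.71 for Tubb3, -1.16 to 0.15 for Tubb2a, -0.86 to 0.18 for Tuba4a and -1.05 to 0.61 for Tubb2b. A difference of the size and direction seen for Tubb6 lies outside all 5 of these intervals. It lies inside those of Tubb5 and Tuba1c, which reached down to -2.22 and -2.80. The alpha-amanitin and oocyte comparisons share the same control embryos, so the higher Tubb6 of treated embryos and the lower Tubb6 of controls against oocytes are not independent values.

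Set directly against oocytes, alpha-amanitin embryos showed no called tubulin. Tubb6 had 258, 213, 219 and 216 CPM in alpha-amanitin embryos, against 337, 282, 260.5 and 304 CPM in oocytes. The groups came close but did not overlap, with 258 as the highest embryo value and 260.5 as the lowest oocyte value. Of all genes tested, 8.16% were separated in this direction. The log2 fold change was -0.38 (95% interval -0.77 to 0.02, edgeR adjusted p = 0.520). None of the 8 was called by edgeR, by DESeq2 or by limma voom, over a background of 0.442% of genes called higher and 1.27% lower. At an unadjusted p under 0.05 there was 1 tubulin, Tuba4a, with 143, 103, 92.8 and 76.9 CPM in alpha-amanitin embryos and 144, 161, 134 and 165 CPM in oocytes. Its log2 fold change was -0.53 (edgeR adjusted p = 0.468), and the groups overlapped through the deepest library, replicate 1.

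**Figure D3:**
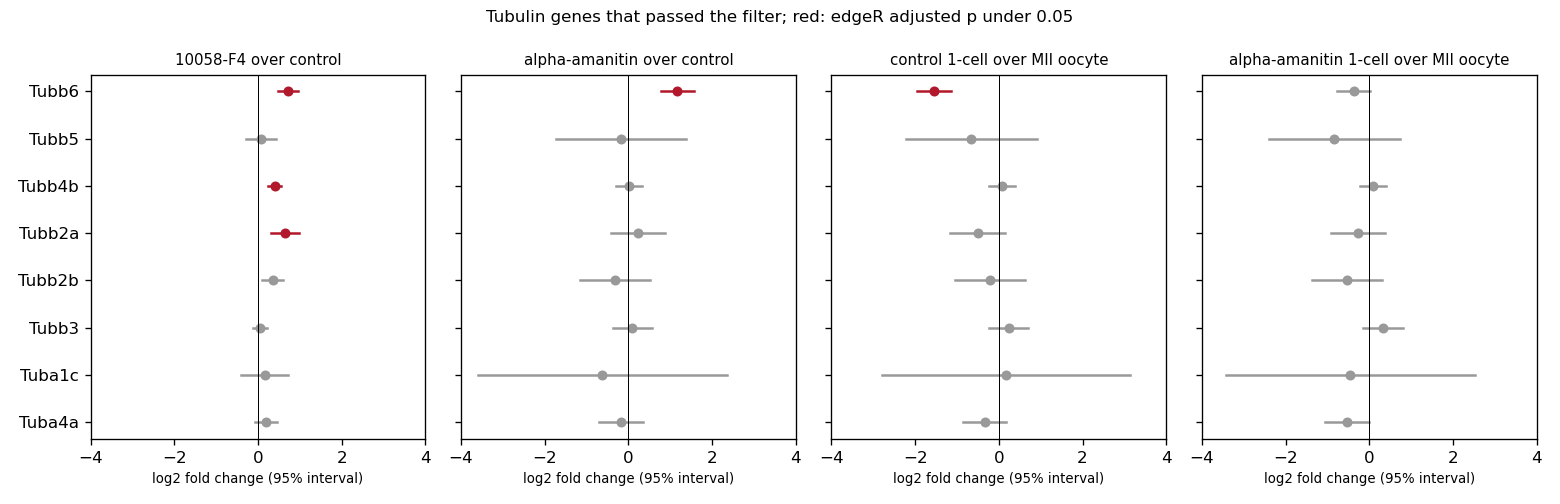
Log2 fold changes with 95% intervals for the 8 tubulin genes that passed the filter, in the 4 comparisons; red marks an edgeR adjusted p under 0.05. Tubb6 is red at 0.71 and 1.17 under the inhibitors and at -1.54 in control embryos over oocytes, and Tubb4b and Tubb2a are red in the first panel only.

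The effects of the 2 inhibitors were also compared directly, in 1 fit of the 22 embryo libraries. None of the 9 tubulins tested differed between them by edgeR's adjusted p, and DESeq2 and limma voom called none either. The ninth was Tuba1b, which passed the filter in this fit, with a 95% interval of the difference from -1.16 to 11.52 and its highest value, 19.7 CPM, in 1 control library. Over all 15790 genes, 0.678% were called higher and 0.367% lower. For Tubb6 the 10058-F4 effect minus the alpha-amanitin effect was -0.45 on the log2 scale (95% interval -0.91 to 0.01, edgeR adjusted p = 0.306). For Tubb4b it was 0.39 (95% interval 0.09 to 0.68, edgeR adjusted p = 0.162), the one tubulin with an unadjusted p under 0.05. For Tubb2a it was 0.42, with an interval from -0.32 to 1.16. That Tubb4b and Tubb2a were called under 10058-F4 and not under alpha-amanitin is therefore not shown to be a difference between the inhibitors.

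The make-up of the beta-tubulin pool followed these values. As shares of the CPM per kilobase of the 6 beta-tubulins, Tubb6 took 12.8% ± 1.39 in 10058-F4 embryos and 10.4% ± 1.25 in their controls (SD, n = 7 each). It took 12.3% ± 1.08 in alpha-amanitin embryos, 6.04% ± 1.61 in their controls and 15.6% ± 1.32 in oocytes (SD, n = 4 each). Shares of Tubb6 in alpha-amanitin embryos, from 11.0%, were all above those of their controls, up to 8.42%, and all below those of oocytes, from 14.0%. Tubb3 took 11.6% ± 1.18 in 10058-F4 embryos and 15.0% ± 2.04 in their controls, although its own CPM was nearly level. Tubb4b took 55.6% to 65.9% as means of the 5 groups, with its largest mean share in control embryos of the second series. These shares depend on the length used for each gene, and with the principal transcript Tubb6 took 14.4% in 10058-F4 embryos and 11.8% in their controls.

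**Figure D4:**
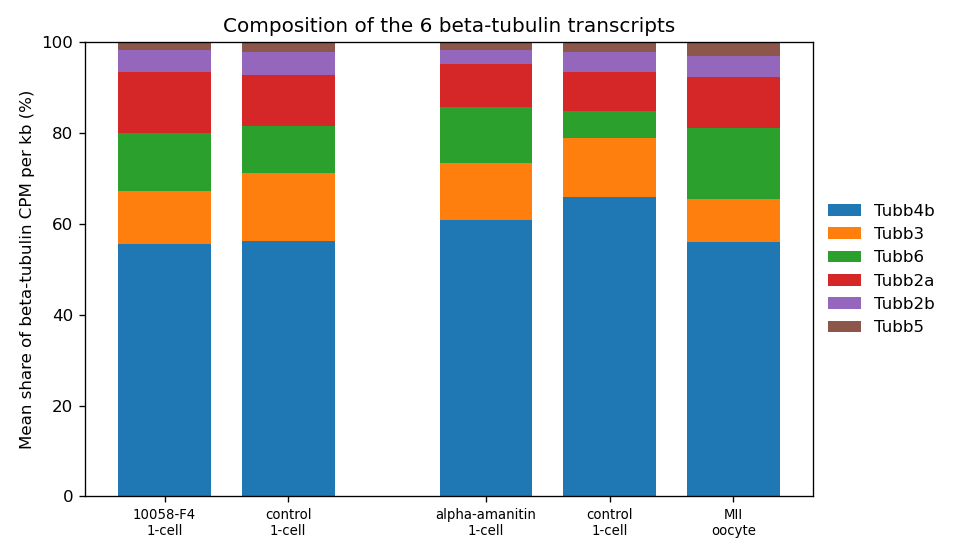
Mean share of each beta-tubulin in the CPM per kilobase of the 6 beta-tubulins, in percent, for each group. The Tubb6 band is 12.8% in 10058-F4 embryos and 10.4% in their controls, and 12.3%, 6.04% and 15.6% in alpha-amanitin embryos, their controls and oocytes.

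The alpha-tubulins among the chosen genes made a small and uneven pool. Tuba4a, whose gene encodes a protein without the C-terminal tyrosine, supplied 77.1% to 87.8% of the CPM per kilobase of the chosen alpha-tubulins, as means of the 5 groups. Other alpha-tubulins are left out of these shares. Tuba3a averaged 10.3 to 46.5 CPM over the 5 groups, highest in oocytes, on 1509 bases of merged exons. Tubal3 averaged 29.4 to 51.3 CPM on 3159 bases, and Tuba4a 96.2 to 151 CPM on 3701 bases. Tuba1c had counts in all libraries but 1 of alpha-amanitin embryos and 1 of their controls. It lay between 9.01 and 16.6 CPM in 10058-F4 embryos and between 4.41 and 15.9 CPM in their controls. In the second series it ran from 0 to 28.1 in alpha-amanitin embryos, from 0 to 59.2 in controls and from 8.30 to 24.9 in oocytes.

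Tuba1a and Tuba1b appeared in a few libraries at a time. Tuba1a had counts in 2 of 7 libraries of 10058-F4 embryos, 4 of 7 of their controls, none of the alpha-amanitin embryos, 1 of 4 of their controls and 1 of 4 of the oocytes, and never reached 1 CPM. Over the 76859676 counts of the 4 alpha-amanitin libraries, a count of 0 allows up to 0.0390 CPM. Tuba1b reached 19.7 CPM in control replicate 1 of the second series, with 296 counts, and at most 3.35 CPM in any other library. That same control library was the one where Tuba1c stood at 0.

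**Figure D5:**
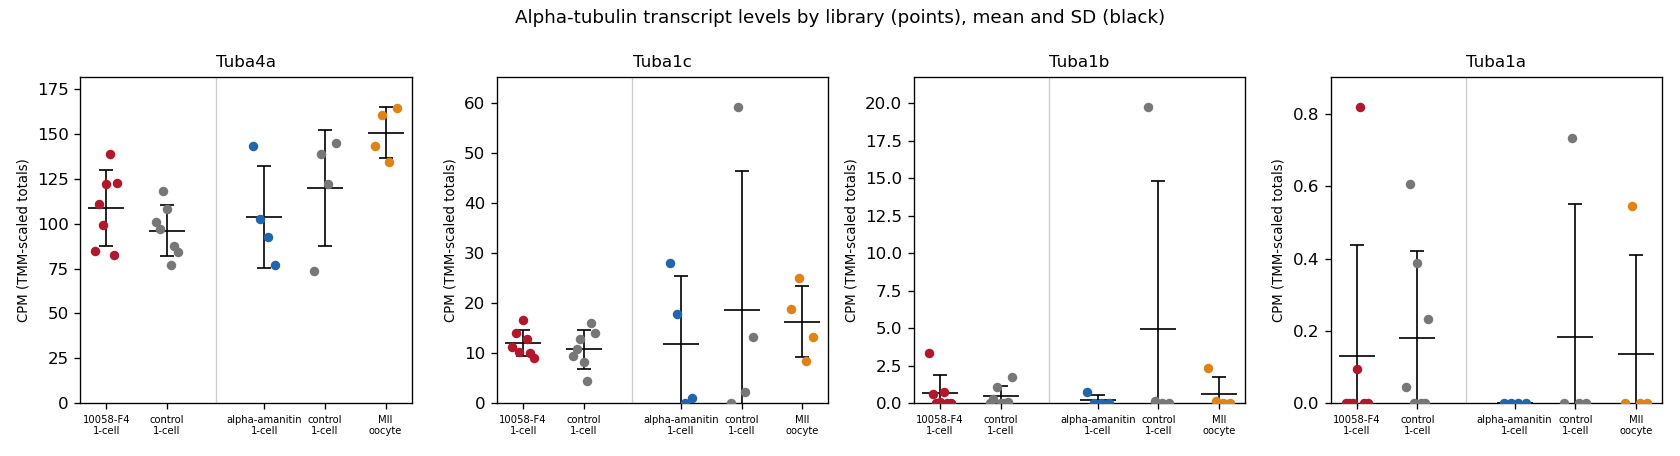
CPM of the 4 alpha-tubulins in each library (points), with the mean and SD of each group in black, cut at 0. Tuba4a lies between 73.7 and 165 CPM everywhere, Tuba1c scatters from 0 to 59.2, and Tuba1b and Tuba1a are near 0 apart from single libraries.

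Which tubulins varied together was read from the correlation of log2 CPM over the 26 libraries, which share the 5 groups, the 2 series and their depths. It is given as a description. Of the other tubulins Tubb2a was the most like Tubb6, with a Pearson r of 0.65, and of 0.66 without alpha-amanitin replicate 3. Tubb5 and Tubb2b had 0.81 over all libraries and 0.08 without that replicate, where Tubb5 was at 0 and Tubb2b at 15.6 CPM. Among 7239 other genes, the most like Tubb6 were Mgat4b (0.88), an enzyme that branches N-glycans, Adam10 (0.88), a membrane protease, and Rnf139 (0.85), a ubiquitin ligase of the endoplasmic reticulum. The most like Tubb4b were Trappc3 (0.71), a part of a vesicle tethering complex, Mrps25 (0.71), a mitochondrial ribosomal protein, and Ercc4 (0.67), a DNA repair nuclease. The most like Tubb2a were Fam207a (0.84), Eif2b4 (0.80), a subunit of a translation initiation factor, and Hyou1 (0.76), a chaperone of the endoplasmic reticulum.

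The promoter windows of 8 of the 10 genes were searched for the E-box CACGTG, which c-Myc and Max bind, and for TATAAA, the core of a TATA box, on both strands. RefSeq windows of GRCm38.p6 from 250 bases before to 50 bases after the start of the gene were used. They held no window for Tubb6 and Tubb2b, so Tubb6, called higher under 10058-F4, was not searched. CACGTG occurred in 1 of the 8, Tubb5, against 7.15% of 32851 windows. TATAAA occurred in 2, Tubb4b and Tubb2a, against 13.6% of windows. The Tubb4b match begins at base 19 after the start of the gene, whereas a TATA box lies before the start. The windows of Tubb5 and Tubb2a are shown because they place a match beside a measured value: Tubb5, with the E-box, was not called under 10058-F4, and Tubb2a, with the TATAAA, was higher. The matches are in capitals, at base -75 for Tubb5 (chr17:35838252-35838551, minus strand) and at base -29 for Tubb2a (chr13:34077959-34078258, minus strand), counted from the start of the gene.
Tubb5: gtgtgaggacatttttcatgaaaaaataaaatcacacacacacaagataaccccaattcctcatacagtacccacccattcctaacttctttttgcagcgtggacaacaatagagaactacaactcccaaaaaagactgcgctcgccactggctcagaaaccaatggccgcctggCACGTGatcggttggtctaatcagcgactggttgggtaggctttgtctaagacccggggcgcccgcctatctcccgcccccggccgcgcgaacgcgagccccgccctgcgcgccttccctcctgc
Tubb2a: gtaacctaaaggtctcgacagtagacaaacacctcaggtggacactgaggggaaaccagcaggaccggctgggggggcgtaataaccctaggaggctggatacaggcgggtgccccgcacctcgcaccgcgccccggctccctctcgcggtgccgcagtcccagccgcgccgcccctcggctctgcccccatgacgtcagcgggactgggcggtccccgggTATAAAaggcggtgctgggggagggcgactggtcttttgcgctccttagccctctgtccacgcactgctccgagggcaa
A match is a run of letters in this window and not a measured binding site. In the last 100 bases of the transcripts, the polyadenylation signal AATAAA occurred in 6 of the 10 genes, against 59.8% of 21644 genes, and its variant ATTAAA in Tubb4b. TTTTAT, a form of the element through which eggs lengthen poly(A) tails, occurred in Tubb2b and Tubb3 (12.6% of genes), and the longer TTTTAAT in none.

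The other genes of the tubulin family gave no call in any of the 5 comparisons, with edgeR, DESeq2 or limma voom. Of 10, 7 passed the filter: the alpha-tubulins Tuba3a, Tuba3b and Tubal3, the gamma-tubulins Tubg1 and Tubg2, which nucleate microtubules, and the delta- and epsilon-tubulins Tubd1 and Tube1 of centrioles. Under 10058-F4 their log2 fold changes were 0.25, -0.18, 0.09, 0.12, 0.20, -0.03 and -0.48 in that order. Under alpha-amanitin they were 1.06, -0.58, -0.69, -0.28, -0.13, -1.45 and -0.07. In control embryos against oocytes they were -2.19, -1.11, 0.61, -0.09, -0.05, -0.72 and -0.86, where Tuba3a, with 10.3 ± 9.41 CPM in embryos and 46.5 ± 16.9 in oocytes, was the one with an unadjusted p under 0.05 (edgeR adjusted p = 0.185). In alpha-amanitin embryos against oocytes they were -1.13, -1.69, -0.07, -0.36, -0.18, -2.17 and -0.93. Tubb1, Tubb4a and Tuba8 were at or below 1.41 CPM in every library.

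The 3 genes of autoregulation were all detected and none was called by edgeR. Ttc5, which recognises nascent tubulin, averaged 13.2 ± 2.98 CPM in 10058-F4 embryos and 9.21 ± 5.48 in their controls, 8.34 ± 1.98 in alpha-amanitin embryos and 1.44 ± 1.24 in their controls, and 15.2 ± 8.79 in oocytes. Scaper, its partner, averaged 105 ± 22.9 CPM in 10058-F4 embryos and 123 ± 11.5 in controls, 78.2 ± 32.8 in alpha-amanitin embryos and 86.7 ± 16.7 in controls, and 65.1 ± 13.6 in oocytes. Cnot11, which links the pair to the CCR4-NOT deadenylase, averaged 89.8 ± 24.4 CPM in 10058-F4 embryos and 111 ± 11.3 in controls, 106 ± 64.7 in alpha-amanitin embryos and 105 ± 14.2 in controls, and 183 ± 18.3 in oocytes. The alpha-amanitin library range of Ttc5, 5.60 to 10.1 CPM, lay above that of its controls, 0 to 3.03, at a log2 fold change of 2.54 (edgeR adjusted p = 0.725). Separation in this direction was seen in 1.27% of all genes tested, and the controls held 118 counts of Ttc5 in total. For control embryos against oocytes Ttc5 and Cnot11 had an unadjusted p under 0.05, with log2 fold changes of -3.40 and -0.82, and DESeq2 called 1 of the 3 lower. Under 10058-F4 Cnot11 was the 1 gene with an unadjusted p under 0.05 (log2 fold change -0.30), and limma voom called none of the 3 in any comparison.

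Tubulin folding genes, the chaperonin and prefoldin subunits and the tubulin cofactors, were called in few members. All 22 passed the filter. Under 10058-F4, 1 was called higher and 1 lower, against 6.82% higher and 4.08% lower among all genes, which is no more than about the background. Pfdn6, a prefoldin subunit, had 3.02 to 20.9 CPM in 10058-F4 embryos, against 0.172 to 2.95 in controls, a log2 fold change of 2.32 (edgeR adjusted p = 0.00970). Cct2, a chaperonin subunit, averaged 105 ± 14.4 CPM in 10058-F4 embryos and 135 ± 5.49 in controls, and its log2 fold change was -0.35 (edgeR adjusted p = 0.0151). In control embryos the chaperonin subunits Cct5 and Tcp1 were lower than in oocytes, by log2 fold changes of -1.97 (edgeR adjusted p = 0.000998) and -1.55 (edgeR adjusted p = 0.00607). Cct5 averaged 75.4 ± 15.3 CPM in control embryos and 293 ± 23.1 in oocytes. In this comparison 2 of 22 were called lower, against 1.78% of all genes, while DESeq2 called 3 and limma voom 4. The median log2 fold change of the 22 was -0.60, against -0.028 over all genes, with 5 above 0. The difference of the list from that background was not tested. In alpha-amanitin embryos against oocytes Cct5 was lower as well (log2 fold change -1.56, edgeR adjusted p = 0.00998). No folding gene was called between alpha-amanitin and its controls, where 2 had an unadjusted p under 0.05 and neither DESeq2 nor limma voom called any.

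Enzymes that modify tubulin gave 1 call in 21 genes tested under 10058-F4, a share below the 6.82% of all genes called higher. Hdac6, which removes acetyl groups from alpha-tubulin, averaged 24.8 ± 7.49 CPM in 10058-F4 embryos and 13.1 ± 3.68 in controls, with a log2 fold change of 0.93 (edgeR adjusted p = 0.00668). Of the 22 tested in the second series, none was called by edgeR, and DESeq2 called none. In each of the 2 comparisons with control embryos 1 had an unadjusted p under 0.05 by edgeR. These were Sirt2, lower under alpha-amanitin, and Agtpbp1, higher in control embryos than in oocytes. For control embryos against oocytes limma voom called 1 lower, a direction in which edgeR had none at an unadjusted p under 0.05.

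Among 29 genes for proteins that bind microtubules and set their growth, 26 passed, and the calls under 10058-F4 went both ways, with 4 higher and 4 lower. Among all genes 6.82% were called higher and 4.08% lower, and the difference of the list from that background was not tested. The named genes are those with the smallest p. Camsap3, which holds the minus ends of microtubules that lack a centrosome, averaged 188 ± 49.8 CPM in 10058-F4 embryos and 100.0 ± 27.8 in controls (log2 fold change 0.93, edgeR adjusted p = 0.000272). Its relative Camsap2 averaged 613 ± 29.6 CPM in 10058-F4 embryos and 765 ± 98.0 in controls (log2 fold change -0.30, edgeR adjusted p = 0.00876). Map7d1 and Map4, which bind along the microtubule, had log2 fold changes of 0.62 and 0.45 (edgeR adjusted p = 0.00748 and 0.0105).

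The Camsap pair moved in opposite directions after fertilisation as well. Camsap3 averaged 95.7 ± 4.77 CPM in control embryos and 315 ± 44.3 in oocytes, a log2 fold change of -1.73 (edgeR adjusted p = 2.12e-05). Camsap2 averaged 825 ± 89.7 CPM in control embryos and 490 ± 55.8 in oocytes, a log2 fold change of 0.74 (edgeR adjusted p = 0.00385). In alpha-amanitin embryos against oocytes Camsap3 was the 1 gene of this list called, at a log2 fold change of -1.57 (edgeR adjusted p = 6.29e-05). None was called between alpha-amanitin embryos and their controls, with 105 ± 17.8 CPM of Camsap3 in treated embryos and 95.7 ± 4.77 in controls. In that comparison 1 gene of the list, Map1b, had an unadjusted p under 0.05, and DESeq2 and limma voom called none.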

How the data were processed

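RNA of 26 libraries was analysed. The authors deposited raw counts per gene, whole numbers, for 55401 Ensembl gene IDs. Per the labels' protocols, single cells were lysed directly and total RNA went into a stranded kit (SMARTer Pico). The submitters' processing notes list cutadapt 1.7.1, STAR 2.5.0a and the build GRCm38. Which program counted the reads, with which strand option and gene models, was not given in the sources used here, so overlapping genes and close copies are uncertain. GENCODE vM21 named 55141 IDs, and the other 260 held 0.00563% of counts.

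Counts were tested in R 4.3.3 with the edgeR 4.0.16 quasi-likelihood F test, TMM scaling, filterByExpr (minimum count 10, minimum total 15) and Benjamini-Hochberg adjustment over all genes tested, at 0.05. The first series was fitted on its 14 libraries and 13003 genes, the second on its 12 libraries and 13133 genes, and the difference of effects on the 22 embryo libraries and 15790 genes. CPM use TMM-scaled totals over all 26 libraries. Alternatives were DESeq2 1.42.0, limma voom 3.58.1, RLE scaling, raw totals, no filter, other sets of libraries, a replicate block and leaving out each library. Scripts were tested on simulated data.

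The members and gene lists were chosen with earlier results of these data known. Named were all members, detected genes of the other-tubulin and autoregulation lists, up to 4 called genes per other list and comparison with the smallest p, and the 3 genes most like each called member (Pearson, log2 CPM with prior count 2, mean of at least 10 CPM). Floors are 3 counts and cover counting error only. No 2 libraries agreed within sampling noise in 60 pairs compared. No protein table was used.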

Additional observations from a re-analysis of the deposited data

Results flagged for a closer look

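Of 49 sets of a tubulin gene and a group, 10 held a library whose gap to the nearest other library exceeded Dixon's limit for its group size (0.829 of the range for 4 libraries, 0.568 for 7). Chance flags about 1 in 20 sets, and genes near 0 in most libraries meet the limit whenever a single library holds counts.

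Of these, 7 were such cases. Tuba1a stood highest in 10058-F4 replicate 5 (0.821 CPM, 22 counts), control replicate 2 of the second series (0.735 CPM, 14 counts) and oocyte replicate 2 (0.545 CPM, 13 counts). Tuba1b stood highest in 10058-F4 replicate 1 (3.35 CPM, 79 counts), alpha-amanitin replicate 1 (0.736 CPM, 24 counts), oocyte replicate 1 (2.32 CPM, 59 counts) and control replicate 1 of the second series (19.7 CPM, 296 counts, with the other 3 controls at 0 to 0.105 CPM).

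The other 3 were in expressed genes. Tubb6 in alpha-amanitin replicate 1, the deepest library, was 258 CPM, while the other 3 treated libraries lay between 213 and 219. Tubb5 was at 0 in alpha-amanitin replicate 3, the shallowest library, while the others held 52.7 to 63.5 CPM. Tubb5 was 54.6 CPM in oocyte replicate 1, while the other oocytes held 85.2 to 87.8 CPM.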

How the results depend on the processing

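Of 933 log2 fold changes of single tubulins under an alternative, 916 stayed on their side of the threshold, 14 lost a call, 3 gained one and no call reversed; 30 values changed sign while called in neither setting. The calls of Tubb6 and Tubb4b under 10058-F4 and of Tubb6 in control embryos against oocytes held in all settings. Tubb2a under 10058-F4 lost its call in 1 fit of all 5 groups (adjusted p = 0.120), and Tubb2b gained one with DESeq2 (adjusted p = 0.0487) and without 10058-F4 replicate 2 or control replicate 8. The number of tubulins called higher under alpha-amanitin was 1, with a range of 0 to 1 when a library was left out, and 0 with only the 2 groups in the fit (Tubb6 log2 fold change 1.18, adjusted p = 0.397), 0 without the 2 libraries that stood apart, an alternative chosen after seeing the data, and 0 with the replicate block (log2 fold change 1.18, adjusted p = 0.111). Adjusted p for Tubb6 ran from 2.32e-06 to 0.397 over these settings, and the cause was not tested. The labels do not say whether replicate numbers pair the libraries. Deviations of libraries with the same number correlated at -0.026 to 0.041 in the first series and -0.031 to 0.049 in the second. With different numbers the ranges were -0.056 to 0.040 and -0.064 to 0.090. No pairing by number was seen, which cannot exclude a shared day or batch. The block changed no other tubulin call.

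Counts over all genes moved more. Under 10058-F4, 887 genes were higher and 531 lower, and 1 fit of all 5 groups gave 266 and 115, the block 701 and 291, and DESeq2 1054 and 859. Under alpha-amanitin, 3 were higher and 1 lower, while DESeq2 gave 91 and 32, no filter 74 and 15, 1 fit of all 5 groups 63 and 40, and the block 0 and 0. For control embryos against oocytes, 146 were higher and 234 lower, and other settings gave up to 572 and 837. For alpha-amanitin embryos against oocytes, 58 were higher and 167 lower, and other settings gave up to 329 and 530. For the difference of effects, 107 were higher and 58 lower, with 41 and 3 under the block and 413 and 629 in DESeq2. The second series limits what can be seen for low genes, since a count of 0 in its shallowest library allows 0.558 CPM.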
